A study of Mus musculus with 36 samples.

Results

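The 10 genes *Mrc1*, *Cd163*, *Msr1*, *Marco*, *Stab1*, *Mgl2*, *Retnla*, *Chil3*, *Folr2* and *Lyve1* encode scavenger receptors, lectins and secreted proteins used to mark alternatively activated macrophages. They were picked by gene name from the 24781 genes of the deposited count table, without use of a threshold. Digital RNA sequencing, which tags each cDNA with a barcode so that molecules are counted in place of amplified copies, was run on 36 libraries of 100 sorted cells each from MC38 tumours, a mouse colon adenocarcinoma grown in the skin. Tumour-associated macrophages (TAMs, CD45+CD11b+F4/80high) and CD8 T cells (CD45+TCRbeta+CD8+) were sorted on day 7 after tumour inoculation, and each cell type had 3 groups of 6 libraries, 1 library per mouse. The first group was wild-type mice (WT, C57BL/6J or C57BL/6N), the second muMt-/- mice (C57BL/6J), which lack mature B cells from birth, and the third muMt-/- mice that carried a slow-release pellet of the neurotransmitter GABA from the day before inoculation. The labels give no treatment for the first and second groups, which the paper describes as placebo-treated. Mice of both sexes aged 2 to 5 months were used across the study, and neither sex nor age is given per library. The mutation is present in every cell and throughout development, so that the WT comparison measures lifelong B cell absence, and the WT group may differ from the others in substrain. There was no WT group with GABA.

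Macrophages exposed to interleukin 4 or interleukin 13 signal through the shared receptor chain encoded by *Il4ra* and the transcription factor encoded by *Stat6*, and the resulting state is called alternative activation. Its products include chitinase-like and resistin-like secreted proteins, chemokines and lectins that bind sugars on glycoproteins. Scavenger receptors take up modified lipoproteins, dying cells and matrix fragments, and several of them also mark long-lived resident macrophages that lie along blood vessels and in connective tissue.

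The depth of TAM libraries ran from 206394 to 304100 molecules in the WT group (median 242756), from 100254 to 253608 in the muMt-/- group (median 149960) and from 151856 to 262606 in the GABA-pellet group (median 192775). Depth was uneven between the groups: the ratio of geometric means of muMt-/- to WT TAM libraries was 0.646 (p = 0.026 and, adjusted over 6 such comparisons, 0.0779, two-sided exact permutation), and that of GABA-pellet to WT CD8 libraries, the farthest from 1, was 2.01 (p = 0.00866, adjusted p = 0.0519). None of the 6 had an adjusted p under 0.05. The 10 genes together contributed 1456 molecules in WT, 1192 in muMt-/- and 1162 in GABA-pellet TAM libraries. CD8 libraries held 8, 93 and 73 molecules of them in the same order.

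The labels of both cell types were checked on marker genes. Of 18 TAM markers in the file, all 18 had molecules in each TAM group, and their sum ran from 1001 to 2034 molecules per 100000 in single TAM libraries, with *Apoe* the most abundant. The 12 CD8 T cell markers summed to between 326 and 1058 per 100000 in CD8 libraries, with *Gzmb* the most abundant, and to at most 6.18 in TAM libraries. Of 5 B cell genes, *Cd79a* and *Pax5* had 0 molecules in all 3 TAM groups, *Cd79b* had 6, 4 and 9 in WT, muMt-/- and GABA-pellet TAMs, *Cd22* was found in each group and *Ms4a1* had 1 molecule with the GABA pellet. Numbers this low do not test the genotype in these sorted cells.

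Several libraries stood apart. Replicates 2 and 6 of the GABA-pellet TAMs held 13.3% of all TAM molecules but 84.4% of the *Lyve1* molecules (27 of 32) and 90% of the *Cd163* molecules (18 of 20). Replicate 4 of the muMt-/- TAMs held 137 *Mrc1* molecules, 47.7% of those in its group. Replicate 1 of the GABA-pellet TAMs had the lowest sum of TAM markers, 1001 per 100000, and replicates 1 and 5 of the muMt-/- CD8 group had the most molecules of the 10 genes among CD8 libraries, 39 and 35.

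Of the 10 genes, 7 passed a filter on the mean over the 18 TAM libraries (normalized number above 1). A normalized number is the count divided by the library's size factor. *Cd163* (mean 0.893), *Retnla* (0.231) and *Marco* (0.0513) did not pass, and *Lyve1* passed only through the GABA-pellet group, so that it had to differ there. In CD8 libraries *Msr1* and *Chil3* passed, both with a group mean above 1 only in the muMt-/- and GABA-pellet groups.

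None of the members tested passed the threshold by edgeR between mouse groups in TAMs, and the description that follows is of levels. In muMt-/- TAMs the medians of *Mrc1*, *Msr1*, *Mgl2* and *Chil3* were higher than in WT, and those of *Stab1* and *Folr2* lower. With the GABA pellet, *Msr1* was lower in every library than in any muMt-/- library without it, while *Lyve1* and *Cd163* were found almost only in 2 GABA-pellet libraries. The share of all genes whose ranges lie apart as for *Msr1* is not given here, so that this gap cannot be set against a background. Of 11 other products of alternative activation tested, 7 passed as higher in muMt-/- than in WT TAMs by edgeR, among them *Clec7a*, beside 2.05% of all genes in either direction. With depth as a covariate 2 did, beside 11 genes in all. That list was written with earlier results of these data known, so that its counts are a description and no independent test.

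By edgeR, 0 of the 7 genes tested in TAMs had an adjusted p under 0.05 for muMt-/- against WT, a comparison that asks what lifelong absence of B cells changed, where 2.05% of 9469 genes did (194). That number was 87 without WT replicate 1, 125 without WT replicate 6 and 67 without muMt-/- replicate 4, and 11 with the depth of each library as a covariate. At an unadjusted p under 0.05 it was 1 of 7, *Mrc1*, beside 14.9% of all genes, and DESeq2 called 0 of them and 275 genes in all. For GABA-pellet against muMt-/- mice, which asks whether GABA changed TAMs without B cells, edgeR called 0 of the 6 members other than *Lyve1* beside 0.0211% of all genes (2), at an unadjusted p 2 of 6 (*Mrc1* and *Msr1*) beside 8.46%, and DESeq2 called 1, *Msr1*, and 65 genes in all. For GABA-pellet against WT mice edgeR called 0 of the same 6 beside 0.0739% (7), at an unadjusted p 2 of 6 (*Stab1* and *Chil3*) beside 7.02%, and DESeq2 called 0 and 15 genes in all. The 2 genes became 5 without replicate 2 of the muMt-/- or of the GABA-pellet group, 12 without muMt-/- replicate 5 and 36 without GABA-pellet replicate 1, and the 7 became 2 or 3 without any 1 of WT replicates 1, 2, 3, 4 and 6 or GABA-pellet replicates 1, 2 and 3. The 3 comparisons share libraries, so that a high or low group enters 2 of them, and an adjusted p above the threshold does not show that values did not differ. In bulk RNA of sorted cells, fewer cells of a type and less RNA per cell cannot be told apart.

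*Msr1* (chr8:39543232-39642750) encodes the class A scavenger receptor that takes up modified low-density lipoprotein, and it gave the most molecules of the 10 genes in TAMs, 2255. Its normalized number in WT TAMs ran from 83.6 to 134 (median 120), in muMt-/- TAMs from 121 to 156 (median 139) and in GABA-pellet TAMs from 79.3 to 110 (median 100). All 6 GABA-pellet libraries lay below every muMt-/- library, 4 of 6 muMt-/- libraries lay above every WT library, and the GABA-pellet and WT ranges overlapped. No share of all genes with ranges apart is given beside this. The log2 fold change of GABA-pellet against muMt-/- TAMs was -0.45 (SE 0.14), with an adjusted p of 0.285 by edgeR. By DESeq2 the log2 fold change was -0.47 and the adjusted p 0.0114, and over the 9 alternatives the adjusted p ran from 0.0114 to 0.458. Leaving out single libraries moved the log2 fold change between -0.50 and -0.41. Against WT, the log2 fold change was 0.21 (SE 0.14, adjusted p = 0.532) in muMt-/- TAMs and -0.24 (SE 0.14, adjusted p = 0.768) in GABA-pellet TAMs.

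**Figure D1:**
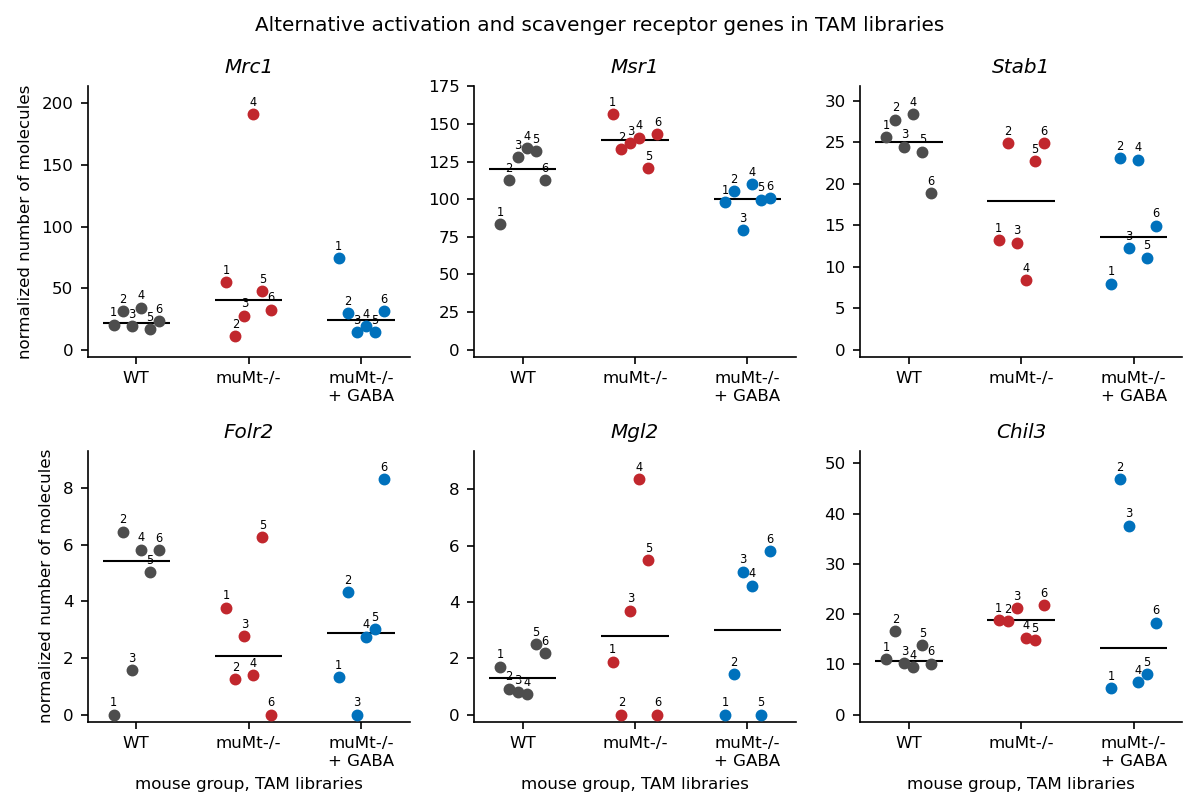
Normalized number of molecules per TAM library (y axis, from 0) for 6 genes in the 3 mouse groups (x axis), 6 libraries per group, with the replicate number above each point and a line at the group median. All 6 GABA-pellet libraries lie below every muMt-/- library for *Msr1*, and 1 muMt-/- library reaches 191 for *Mrc1*.

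*Marco* (chr1:120474538-120505024), a related class A receptor that binds bacteria and particles, had 1 molecule in the TAM libraries, in WT replicate 2, and 0 in the CD8 libraries. A total of 0 in the muMt-/- TAMs allows up to 0.304 molecules per 100000, so that a difference between groups was not detectable at this depth.

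*Stab1* (chr14:31139017-31168651) encodes stabilin-1, a receptor for acetylated lipoprotein and matrix proteins. Its normalized number ran from 18.9 to 28.3 in WT (median 25.0), from 8.37 to 24.9 in muMt-/- (median 17.95) and from 7.97 to 23.1 in GABA-pellet TAMs (median 13.6). The libraries of muMt-/- mice fell into a lower set (replicates 1, 3 and 4) below every WT library and a higher set inside the WT range, and 4 of 6 GABA-pellet libraries lay below every WT library. The log2 fold change was -0.47 (SE 0.24, adjusted p = 0.354) for muMt-/- against WT and -0.63 (SE 0.23, adjusted p = 0.536) for GABA-pellet against WT. Between the GABA-pellet and muMt-/- groups it was -0.16 (SE 0.26, adjusted p = 0.917).

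*Cd163* (chr6:124304636-124330529) encodes the receptor that clears haptoglobin-bound haemoglobin. The 6 WT libraries held 1 molecule in all, the 6 muMt-/- libraries 1 and the 6 GABA-pellet libraries 18. Of these 18, replicate 6 held 12 and replicate 2 held 6, and the 4 other GABA-pellet libraries held 0. The pooled ratio of GABA-pellet to muMt-/- TAMs was 14.7 (95% counting interval 2.32 to 613), and that to WT 21.9 (3.45 to 912). These intervals cover counting error only, and without replicates 2 and 6 both sides were at or under 3 molecules and no ratio was formed.

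*Mrc1* (chr2:14229414-14332023) encodes the mannose receptor, a lectin for mannose-rich glycoproteins. Its normalized number ran from 16.9 to 34.2 in WT (median 21.9), from 11.2 to 191 in muMt-/- (median 40.2) and from 14.1 to 74.3 in GABA-pellet TAMs (median 24.4). Replicate 4 of the muMt-/- group stood far above the next library of its group (54.6), replicate 1 of the GABA-pellet group above the next of its own (31.6), and all 3 ranges overlapped, with 3 of 6 muMt-/- libraries above every WT library and 1 below every one. The log2 fold change of muMt-/- against WT was 1.27 (SE 0.38), with an adjusted p of 0.0682 by edgeR. Its size rested on replicate 4: without that library the log2 fold change was 0.49 and the adjusted p 0.563. Without muMt-/- replicate 2 it was 1.48 (adjusted p = 0.0238), without replicate 3 it was 1.42 (adjusted p = 0.0426), and over all 12 omissions the adjusted p ran from 0.0238 to 0.563. For GABA-pellet against muMt-/- TAMs the log2 fold change was -0.98 (SE 0.38, adjusted p = 0.432), and -0.22 without muMt-/- replicate 4. For GABA-pellet against WT it was 0.29 (SE 0.40, adjusted p = 0.928), and -0.11 without GABA-pellet replicate 1.

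*Mgl2* (chr11:70130125-70137542) encodes a lectin for galactose-type sugars. Normalized numbers were low, from 0.727 to 2.51 in WT (median 1.31), from 0 to 8.37 in muMt-/- (median 2.79) and from 0 to 5.82 in GABA-pellet TAMs (median 3.01). In each of the muMt-/- and GABA-pellet groups, 3 libraries lay above every WT library and 2 held 0 molecules, below every WT library, so that both groups spread to both sides of the WT range. Log2 fold changes were 1.13 (SE 0.69, adjusted p = 0.432) for muMt-/- against WT, 0.91 (SE 0.68, adjusted p = 0.841) for GABA-pellet against WT and -0.22 (SE 0.63, adjusted p = 0.958) between the GABA-pellet and muMt-/- groups. The last changed sign without muMt-/- replicate 4 (0.14) or 5 (0.05) or GABA-pellet replicate 5 (0.01).

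*Chil3* (chr3:106147554-106167564) encodes the secreted chitinase-like protein Ym1, and *Retnla* (chr16:48842609-48844461) the secreted resistin-like protein RELMα. The normalized number of *Chil3* ran from 9.45 to 16.6 in WT (median 10.7), from 14.9 to 21.8 in muMt-/- (median 18.8) and from 5.31 to 46.9 in GABA-pellet TAMs (median 13.2). Every muMt-/- library lay above the WT median and 4 of 6 above every WT library, whereas the GABA-pellet libraries split, with 3 above every WT library and 3 below every one. The log2 fold change was 0.60 (SE 0.36, adjusted p = 0.443) for muMt-/- against WT and 0.86 (SE 0.33, adjusted p = 0.546) for GABA-pellet against WT. Without GABA-pellet replicate 2, which held 65 of the 143 *Chil3* molecules of its group, the latter was 0.37. For GABA-pellet against muMt-/- it was 0.26 (SE 0.34, adjusted p = 0.888), and -0.23 without replicate 2. Of the 451 windows of 50 bases in the last 500 bases of the *Chil3* transcript, 77 also occur in *Chil4* or *Gm6522*, so that reads in them cannot be told apart by sequence, and *Chil4* itself had 0 molecules in TAMs. Of as many windows, 19 for *Mgl2* and 4 for *Cd163* also occur in other genes, and 0 for the other 7 members. *Mrc1*, *Cd163*, *Stab1*, *Mgl2* and *Folr2* overlap other annotated genes in position, and whether molecules were counted by strand is not given in the sources used here. *Retnla* had 0 molecules in WT and muMt-/- TAMs and 5 in GABA-pellet TAMs, all in replicate 6. With a floor of 3 molecules over the group, the pooled level was at least 2.03-fold that of WT and at least 1.36-fold that of muMt-/- TAMs. The floor covers only the groups at 0, and the 5 molecules lie in 1 library. Neither number is thus a bound on a difference between mouse groups. Without replicates 2 and 6 no ratio was formed.

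*Folr2* (chr7:101839988-101857190) encodes a folate receptor and *Lyve1* (chr7:110850607-110862953) a hyaluronan receptor, both carried by resident macrophages. The normalized number of *Folr2* ran from 0 to 6.46 in WT (median 5.42), from 0 to 6.27 in muMt-/- (median 2.08) and from 0 to 8.31 in GABA-pellet TAMs (median 2.88). In WT, 4 of the 6 libraries lay between 5.02 and 6.46, 1 muMt-/- and 1 GABA-pellet library lay above 5.42, and each group had 1 library with 0 molecules. Log2 fold changes were -0.52 (SE 0.59, adjusted p = 0.744) for muMt-/- against WT, 0.29 (SE 0.63, adjusted p = 0.938) for GABA-pellet against muMt-/- and -0.23 (SE 0.53, adjusted p = 0.962) for GABA-pellet against WT, and all 3 changed sign with depth as a covariate (0.27, -0.04 and 0.23). Without muMt-/- replicate 5 the first was -1.15 and the second 0.92, and without GABA-pellet replicate 6 the second was -0.21 and the third -0.74. Without GABA-pellet replicates 2 and 6 the second was -0.63.

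*Lyve1* had 3 molecules in WT TAMs, all in replicate 6, 1 in muMt-/- TAMs, in replicate 5, and 28 in GABA-pellet TAMs. Of the 28, replicate 2 held 14, replicate 6 held 13 and replicate 5 held 1. The pooled ratio of GABA-pellet to muMt-/- TAMs was 22.9 (95% counting interval 3.78 to 936) and that to WT was 11.3 (3.50 to 58.3). The edgeR log2 fold change was 3.79 (SE 1.30) against muMt-/- and 3.10 (SE 0.99) against WT, given without a p because the gene passed the filter through the GABA-pellet group. Without muMt-/- replicate 5, the only library of its group with a molecule, the first was 5.18, and without WT replicate 6, likewise, the second was 5.17. In both cases the comparison group then held 0 molecules, so that the size is set by the fit and measures no fold. Without replicates 2 and 6 the GABA-pellet group held 1 molecule, no ratio was formed, and *Lyve1* no longer passed the filter.

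The same 2 libraries held most molecules of several genes from a list of resident macrophage genes. They held all 9 molecules of *Cd209f*, 11 of 12 of *Vsig4* (all in replicate 6), 16 of 24 of *Cbr2* and 10 of 14 of *Fcna*, genes singled out after their values were seen. For the more abundant genes of the list the share was 40.5% for *Ccl8*, 24.3% for *F13a1*, 18.6% for *Selenop*, 12.6% for *Hmox1*, 11.7% for *Pf4* and 11.3% for *Maf*, beside 13.3% of all molecules. As a whole the list summed to 162 per 100000 in replicate 6, the highest of the GABA-pellet group. The highest muMt-/- library, replicate 1, reached 149, and GABA-pellet replicate 2 lay below it. Of its 8 genes tested, *Cbr2* and *Gas6* had passed the filter through the GABA-pellet group and were set aside. By edgeR 0 of the other 6 passed in any TAM comparison (at an unadjusted p 2 in each, and by DESeq2 1, *Maf*, as lower with the GABA pellet than in muMt-/- TAMs), with medians of 0.42, -0.27 and 0.08 for muMt-/- against WT, GABA-pellet against muMt-/- and GABA-pellet against WT, beside -0.05, 0.06 and 0.02 over all genes.

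**Figure D2:**
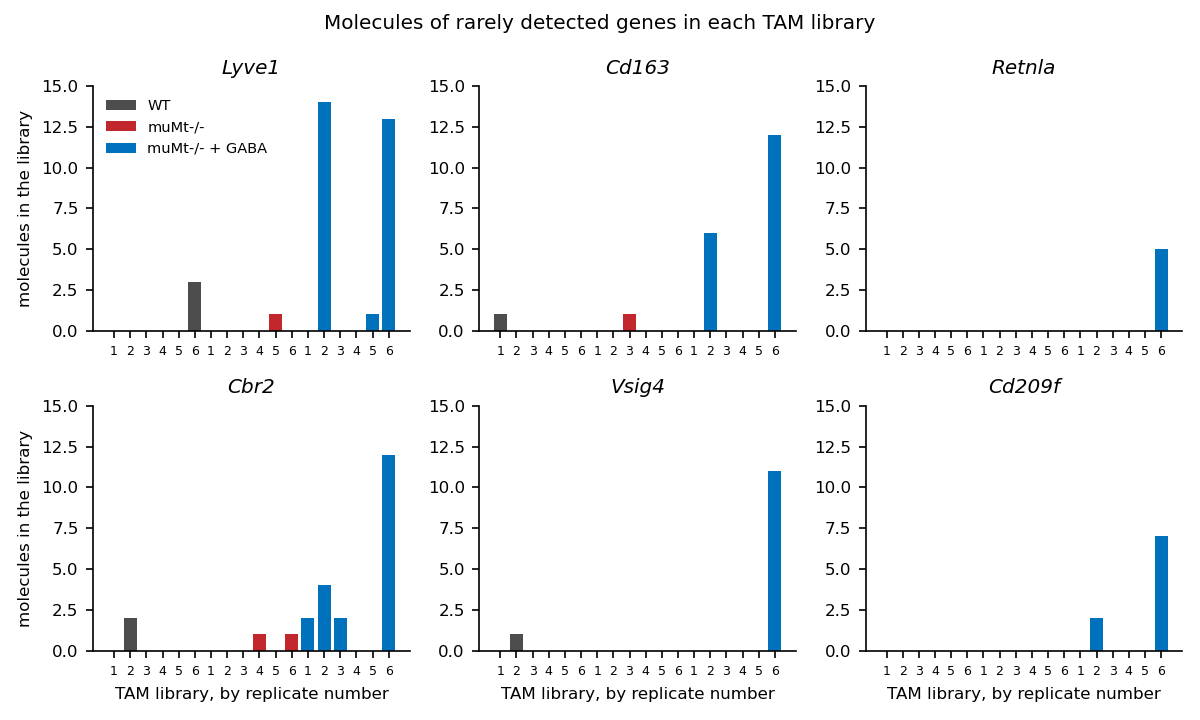
Molecules (y axis, not normalized) of *Lyve1*, *Cd163*, *Retnla*, *Cbr2*, *Vsig4* and *Cd209f* in each of the 18 TAM libraries (x axis, by group and replicate number). Replicates 2 and 6 of the GABA-pellet group hold 27 of the 32 *Lyve1* molecules and 18 of the 20 *Cd163* molecules.

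Endothelial cells can also carry *Lyve1*, *Stab1* and *Mrc1*, and markers of these and other cell types were read in the same libraries. TAMs were sorted as CD45+CD11b+F4/80high, a gate that selects leukocytes and is meant to leave out endothelial cells and fibroblasts. Of 11 endothelial markers, *Prox1*, *Reln* and *Tek* had 0 molecules in all 3 TAM groups, and *Pdpn* was the most abundant in each group. The list's sum was highest in WT replicate 1 (46.5 per 100000), with 32 molecules of *Pdpn*, 22 of *Cdh5*, 21 of *Pecam1* and 15 of *Egfl7*, while *Cdh5* had at most 2 and *Egfl7* at most 1 in any other TAM library. The 6 fibroblast markers, with *Col3a1* the most abundant, summed to 262 per 100000 in GABA-pellet replicate 2, to 79.8 in replicate 6, and to 535 in WT replicate 6, the WT library with *Lyve1* molecules. In the other GABA-pellet libraries the sum ran from 49.4 to 67.4, and in single WT and muMt-/- libraries from 5.62 to 535. Their part in the *Lyve1* and *Cd163* counts was not tested. Of the 6 eosinophil markers, *Siglecf*, *Epx*, *Prg2* and *Ear6* had 0 molecules in all TAM groups, and of 7 tumour epithelium markers *Epcam*, *Krt18*, *Krt19*, *Krt20*, *Cdx2* and *Cldn4* had 0. The other eosinophil and epithelial genes had at most 1 molecule per group.

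Markers of monocytes and of TAMs themselves were compared between mouse groups. Of 6 monocyte markers tested, *Ccr2* and *Plac8* passed as higher in muMt-/- than in WT TAMs, with a median log2 fold change of 0.79 over the 6. Over all genes 2.05% passed in either direction. *Ccr2* did not pass without muMt-/- replicate 4, nor *Plac8* without any 1 of WT replicates 1 to 4 or muMt-/- replicates 2, 3, 4 and 6, and neither with depth as a covariate. By DESeq2 and by the robust fit *Ccr2* passed and *Plac8* did not. Their sum, with *Ccr2* the most abundant, ran from 143 to 192 per 100000 in WT, from 140 to 332 in muMt-/- and from 174 to 243 in GABA-pellet TAMs. Of 18 TAM markers 1 passed as higher (*Itgam*) and 3 as lower (*C1qb*, *C1qc* and *Lyz2*) in muMt-/- than in WT TAMs, and with depth as a covariate 0 did. With a replicate block *C1qb* and *C1qc* did not. Of the 12 omissions of single libraries, *C1qb* passed in 1 (muMt-/- replicate 1) and *C1qc* in 2 (muMt-/- replicates 5 and 6). *Itgam* missed the threshold without any 1 of WT replicates 1, 3, 5 and 6 or muMt-/- replicates 1, 2 and 4, and *Lyz2* without any 1 of replicates 1 and 2 of WT or 1 and 4 of muMt-/- mice. Of the monocyte and TAM markers, 0 of 6 and 0 of 18 passed by edgeR for GABA-pellet against muMt-/- (1 and 3 at an unadjusted p), and *Ccr2* passed as lower by DESeq2, which called 0 of the TAM markers, and by edgeR without GABA-pellet replicate 1. For GABA-pellet against WT 0 of each passed by edgeR (2 and 6 at an unadjusted p), *Lyz2* and *Cd68* passed as lower by DESeq2, which called 0 of the monocyte markers, and *Lyz2* by edgeR without GABA-pellet replicate 5. The 11 neutrophil markers, with *Csf3r* the most abundant and *Retnlg*, *Camp* and *Ngp* at 0, summed to at most 20.1 per 100000, and those of dendritic cells, with *Cd209a* at 0 in all groups, to at most 8.13. The part of these shifts in the values of the 10 genes was not tested. For muMt-/- against WT the fibroblast list had 0 of 5 genes past the threshold (0 at an unadjusted p) and the neutrophil list 0 of 6 (1), both by edgeR, and DESeq2 called 0 of each. Leaving out WT replicate 6 made 1 fibroblast gene pass, *Col1a2*. The endothelial, dendritic and B cell lists had 2, 1 and 0 genes that did not owe the filter to 1 group, too few to count (*Cdh5*, *Ccr7* and *Cd79b* had passed it through the WT, muMt-/- and GABA-pellet groups).

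Other products of alternative activation, a list written with earlier results of these data known, were read in the same fits. Of a list of 16, 11 could be tested in TAMs, and 7 of these passed as higher and 0 as lower in muMt-/- than in WT TAMs, beside 2.05% of all genes in either direction. The median log2 fold change was 1.35, beside -0.05 over all genes. *Clec7a*, which encodes the beta-glucan receptor dectin-1, ran from 79.4 to 159 in WT (median 101), from 204 to 459 in muMt-/- (median 243) and from 155 to 393 in GABA-pellet TAMs (median 169). The WT and muMt-/- ranges of *Clec7a* did not overlap, and the log2 fold change was 1.35 (SE 0.21, adjusted p = 0.00015). *Slc7a2*, a transporter gene for cationic amino acids, changed by 1.80 (SE 0.26, adjusted p = 8.6e-05). The other 5 that passed were the chemokine genes *Ccl17* (5.04) and *Ccl24* (2.49), *Pdcd1lg2* (1.83), *Cdh1* (1.11) and *Fn1* (0.69). *Ccl17* rested on 1 molecule in WT and 40 in muMt-/- TAMs. *Clec7a* and *Slc7a2* stayed past the threshold under every alternative and without any single library, whereas the other 5 did not pass with depth as a covariate, where 11 of all genes did. *Ccl17* and *Pdcd1lg2* did not pass without muMt-/- replicate 4, *Cdh1* without any 1 of WT replicates 1 and 6 or muMt-/- replicates 1 and 4, and *Ccl24* without any 1 of WT replicates 1, 2, 3, 4 and 6 or muMt-/- replicates 1, 4, 5 and 6. Without muMt-/- replicate 4, then, 3 of 11 passed, beside 67 genes in all. By DESeq2 5 did, beside 275 genes in all, with *Tgm2* added and without *Ccl17*, *Ccl24* and *Pdcd1lg2*. The first 2 of these also missed the threshold with the robust fit. *Chil4*, *Alox15*, *Retnlb* and *Retnlg* had 0 molecules in TAMs.

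For GABA-pellet against muMt-/- TAMs, 0 of the 11 passed by edgeR (5 at an unadjusted p) and 1 by DESeq2 (*Fn1*, lower), 10 were lower, and the median was -0.40 beside 0.06 over all genes. For GABA-pellet against WT, 2 passed, *Clec7a* (0.97, adjusted p = 0.0456) and *Slc7a2* (1.31, adjusted p = 0.0386), beside 0.0739% of all genes, and the median was 0.90 beside 0.02. *Clec7a* missed the threshold without any 1 of WT replicates 1, 2, 3, 4 and 6 or GABA-pellet replicates 1, 2 and 3, and *Slc7a2* without any 1 of WT replicates 1, 2, 3 and 6 or GABA-pellet replicates 2, 3 and 6. Both missed it with filterByExpr, and *Clec7a* also with the robust fit, the replicate block, depth as a covariate and only the groups compared. *Ccl24* passed without any 1 of WT replicate 5 and GABA-pellet replicates 4 and 5. Summed over the list, levels per 100000 ran from 261 to 333 in WT, from 477 to 615 in muMt-/- and from 397 to 439 in GABA-pellet TAMs. The 3 groups did not overlap in that sum, with the GABA-pellet libraries between the others. *Fn1* is the most abundant gene of the sum, the list was written with earlier results of these data known, and the WT and GABA-pellet contrasts share the muMt-/- libraries.

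**Figure D3:**
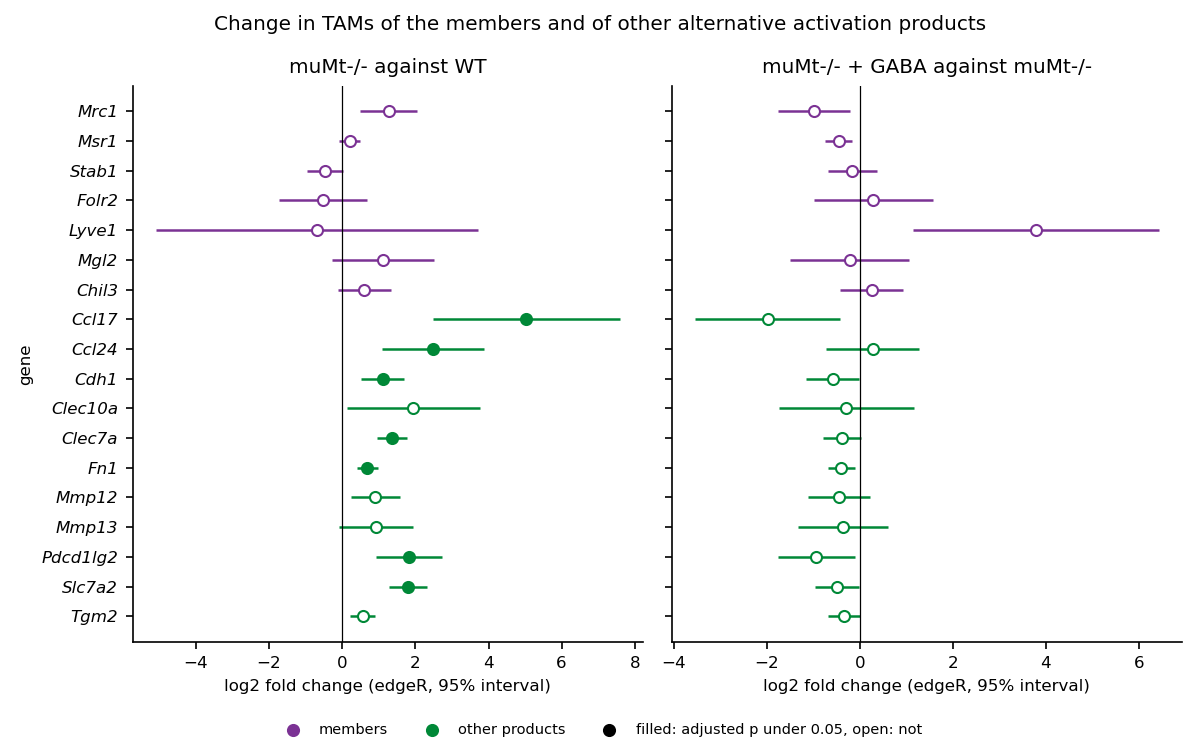
Log2 fold change in TAMs by edgeR (x axis) of the 7 tested members and 11 tested other products (y axis), with 95% intervals, for muMt-/- against WT and GABA-pellet against muMt-/-. For muMt-/- against WT 7 of the 11 other products passed the threshold (filled points) and 0 of the 6 members besides *Lyve1* did (open points), and for GABA-pellet against muMt-/- 0 of these 11 and 6 did. *Lyve1* is drawn but not counted, as it had passed the filter through the GABA-pellet group.

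Upstream, 13 genes that sense interleukin 4 could be tested. For muMt-/- against WT 2 passed as higher, *Il4ra* (0.63, SE 0.17, adjusted p = 0.0343) and *Klf4* (1.08, SE 0.21, adjusted p = 0.00349), and 0 as lower, with a median of 0.26. Over all genes 2.05% passed in either direction. *Klf4* passed without any single library and *Il4ra* in 4 of 12 omissions, but not without any 1 of WT replicates 1, 4, 5 and 6 or muMt-/- replicates 1, 2, 4 and 6, and neither passed with depth as a covariate. The normalized number of *Il4ra* ran from 37.0 to 64.6 in WT (median 42.8), from 59.0 to 90.4 in muMt-/- (median 71.7) and from 44.7 to 63.4 in GABA-pellet TAMs (median 48.3), and of the WT libraries only replicate 2 reached the muMt-/- range. For GABA-pellet against muMt-/- 0 of 13 passed by edgeR (3 at an unadjusted p, 0 by DESeq2) and the median was -0.21, and for GABA-pellet against WT 0 passed (1 at an unadjusted p, 0 by DESeq2) and the median was -0.02.

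Other scavenger receptors and the folate pathway gave no gene past the threshold in TAMs in the reported edgeR fit. Of 10 other scavenger receptors tested, the medians were -0.16, 0.09 and -0.03 for muMt-/- against WT, GABA-pellet against muMt-/- and GABA-pellet against WT, with 5, 0 and 3 genes at an unadjusted p under 0.05 and 1 (*Mertk*, higher), 0 and 1 (*Cd68*, lower) by DESeq2. *Mertk* also passed by edgeR for muMt-/- against WT without replicate 5 of either group, and with DESeq2's size factors, filterByExpr, no filter and the robust fit. In that comparison *Axl* passed with only the groups compared, and *Cd68* passed for GABA-pellet against WT without a filter. The most abundant were *Cxcl16* (-0.28 for muMt-/- against WT), *Cd68* (-0.37) and *Lrp1* (0.17). Of 12 genes from a list of folate transport and metabolism (*Fpgs*, admitted by the filter through the muMt-/- group, is set aside), the medians were -0.58, 0.39 and -0.24, with 5, 0 and 1 at an unadjusted p and 0 by DESeq2 in each, and the most abundant were *Mthfd2* (-0.54), *Ggh* (-0.02) and *Atic* (-0.39).

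Across the 18 TAM libraries, with group means removed, *Mrc1*, *Msr1*, *Stab1* and *Chil3* were compared in 6 pairs, the 4 members with a mean of at least 5. None of the 6 correlations had an adjusted p under 0.05 in permutation tests. The strongest was that of *Mrc1* and *Stab1* (Pearson r -0.52, permutation p = 0.0794, adjusted p = 0.477, and Spearman rho -0.17, permutation p = 0.539), and without muMt-/- replicates 2 and 4 its r was -0.18. Among 1589 genes, those most like *Mrc1* were *Ccnl1* (r 0.83), *Plek* (0.82) and *Sash1* (0.81), and without the same libraries r was 0.65, 0.73 and 0.77. Those most like *Msr1* were *Bcl2a1b* (0.90), *Bcl2a1d* (0.86) and *Bcl2a1a* (0.81), closely related genes, and without WT replicate 1 and GABA-pellet replicate 3 their r was 0.69, 0.57 and 0.46. These were picked for the highest r and are a description without a test.

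CD8 libraries were shallower, with 22896 to 76898 molecules in WT, 51064 to 77839 in muMt-/- and 65356 to 98015 in GABA-pellet mice, and they measure how much of the 10 genes is found in sorted T cells. Between WT TAMs and WT CD8 T cells, edgeR called 22.7% of 8477 genes (1420 higher and 508 lower in TAMs). No count of members is set beside this, since *Mrc1*, *Stab1* and *Mgl2* passed the filter through the TAM libraries and so were selected for their level there. *Msr1* had 931 molecules in WT TAMs and 4 in WT CD8 libraries, a pooled ratio of 41.7 (95% counting interval 16.2 to 153) with a log2 fold change of 5.59 (SE 0.52, adjusted p = 3.53e-13). Without CD8 WT replicate 5, which held 2 of the 4 molecules, the log2 fold change was 6.19. *Mrc1* with 188 molecules and *Stab1* with 194 had 0 in WT CD8 libraries, which is at least 11.2-fold and at least 11.6-fold higher in TAMs with a floor of 3 molecules over the group. The ratio for *Chil3* was 5.55 (1.84 to 27.4), with a log2 fold change of 2.69 (SE 1.02, adjusted p = 0.0375), and of 3.77 without CD8 WT replicate 5. The adjusted p of *Chil3* was above the threshold without any 1 of CD8 replicates 1, 2, 3, 4 and 6 or TAM replicates 2 and 5 of the WT group, and ran from 0.0274 to 0.0966 over the 12 omissions. It was also above with DESeq2's size factors, by DESeq2, with filterByExpr, with the robust fit and with depth as a covariate (log2 fold change 1.56), and ran from 0.000175 to 0.726 over 8 alternatives. *Folr2*, *Lyve1* and *Marco* had 0 molecules in all 18 CD8 libraries.

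In the other CD8 groups more molecules of these genes were found. For *Msr1* the normalized number ran from 0 to 2.29 in WT (median 0.376), from 0.743 to 15.2 in muMt-/- (median 3.03) and from 0 to 8.90 in GABA-pellet CD8 libraries (median 5.86). The highest value belonged to muMt-/- replicate 1, and the ranges of all 3 groups overlapped. As a log2 fold change this was 2.30 (SE 0.90, adjusted p = 0.610) for muMt-/- against WT, 1.61 without muMt-/- replicate 1, and 2.38 (SE 0.88, adjusted p = 0.458) for GABA-pellet against WT. *Chil3* gave 1.99 (SE 1.18, adjusted p = 0.850) for muMt-/- against WT, and 0.13 without muMt-/- replicate 1, which held 15 of the 19 molecules of its group. By edgeR 0 of 2 genes passed in each CD8 comparison, muMt-/- against WT, GABA-pellet against muMt-/- and GABA-pellet against WT, where 0% of 6663 genes passed in each, and DESeq2 called 0 of them too. At an unadjusted p under 0.05 it was 1 of 2, 0 of 2 and 1 of 2, beside 6.17%, 3.71% and 6.89% of all genes.

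Markers of TAMs were read in the same CD8 libraries. Of the 18, 16 could be tested, and for muMt-/- against WT 16 of 16 had a positive log2 fold change with a median log2 fold change of 1.97, beside 0.15 over all genes, while 0 passed the threshold by edgeR or DESeq2 and 12 had an unadjusted p under 0.05. Without WT replicate 5 of the CD8 libraries 1 passed, *Csf1r*, and with no filter on low numbers 10 of 18 did. For GABA-pellet against WT 15 of 16 were positive with a median of 1.90, beside 0.21 over all genes, 0 passed by edgeR or DESeq2, 13 had an unadjusted p under 0.05, and with no filter 12 of 18 passed. The list's sum, with *Ptprc*, a gene of all leukocytes, the most abundant and *Adgre1* and *Mertk* at 0 in WT, ran from 136 to 255 per 100000 in WT, from 221 to 724 in muMt-/- and from 159 to 495 in GABA-pellet CD8 libraries. The highest, 724, was muMt-/- replicate 1, which also held the most molecules of the 10 genes. Relative to TAMs of the same mouse group and per 100000 molecules, *Msr1* in CD8 libraries stood at 2.40% in WT, 11.1% in muMt-/- and 15.1% in GABA-pellet mice. The median over the 18 TAM markers was 3.78%, 16.3% and 17.8% in the same order. Members fell on both sides of it. *Chil3* stood above it in each group, at 50.5% (95% counting interval 29.1 to 83.4) in muMt-/- and 34.6% (20.5 to 55.5) in GABA-pellet mice. *Mgl2*, with 7 CD8 molecules, stood at 95.1% (33.6 to 239) in muMt-/- mice. *Mrc1* (11.1% and 12.1%) and *Stab1* (7.98% and 9.52%) stood below it in muMt-/- and GABA-pellet mice. Of the 31 *Msr1* and 19 *Chil3* molecules in muMt-/- CD8 libraries, replicate 1 held 15 of each, and the percentages without it were not computed. The part of TAM RNA in these CD8 values was not tested.

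**Figure D4:**
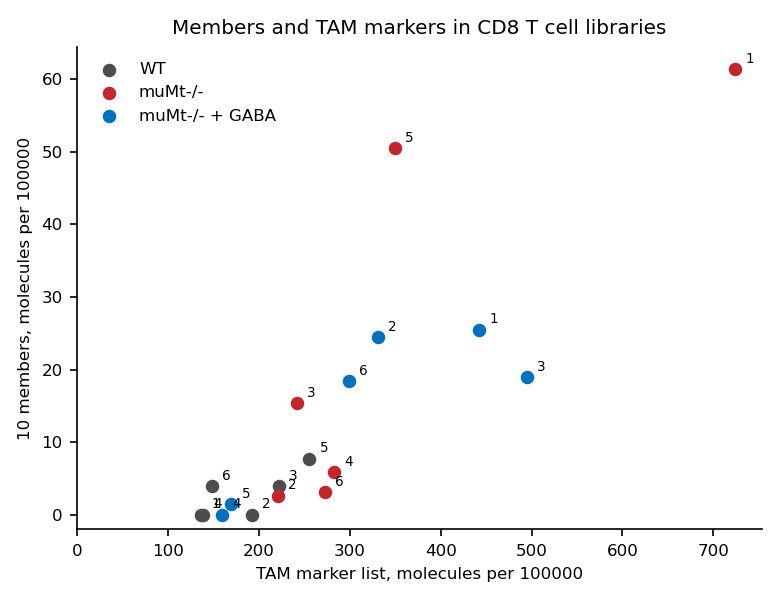
Molecules of the 10 genes per 100000 (y axis) against the sum of the TAM marker list per 100000 (x axis) in the 18 CD8 libraries, coloured by mouse group with the replicate number beside each point. Replicate 1 of the muMt-/- group is highest on both axes, at 61.4 and 724.

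*Retnla* was found in muMt-/- mice mainly in 1 CD8 library. Of 18 molecules in muMt-/- CD8 libraries, replicate 5 held 17, the muMt-/- TAMs held 0, and the pooled level was at least 14.7-fold higher in CD8 than in TAM libraries of that group with a floor of 3 molecules. In GABA-pellet mice TAMs held 5 and CD8 libraries 1, a ratio of TAM to CD8 of 2.02 (0.226 to 95.6), and in WT mice both held 0. *Mgl2* had 7 molecules in muMt-/- CD8 libraries, spread over 4 of 6, and 0 in the other CD8 groups. *Cd163* had 1, 2 and 0 molecules in WT, muMt-/- and GABA-pellet CD8 libraries.

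The difference between cell types in their response was tested in 1 fit of all 36 libraries. *Mrc1*, *Stab1* and *Mgl2* were in this fit through TAMs alone, which leaves *Msr1* and *Chil3* to count. For muMt-/- against WT, 0 of these 2 passed by edgeR beside 0.0118% of 8477 genes (1 at an unadjusted p, *Msr1*, beside 10.1% of all genes, and 0 by DESeq2). *Msr1* had a difference in log2 fold change, TAM minus CD8, of -2.19 (SE 0.84, adjusted p = 0.337), and -1.47 without CD8 muMt-/- replicate 1. *Chil3* had -1.49 (SE 1.36, adjusted p = 0.738), and 0.45 without the same library. The 18 TAM markers had a median of -2.06 in this difference, beside -0.30 over all genes, with 18 of 18 negative, 0 passing by edgeR (14 at an unadjusted p) and 2 by DESeq2 (*C1qb* and *Lyz2*). Of these markers, *Adgre1* and *Mertk* did not pass the filter in CD8 libraries and were in this fit through TAMs alone. They do not count here, and the median over the other 16 was not computed. By edgeR *C1qb* and *Csf1r* passed without CD8 WT replicate 5, and *C1qb* without CD8 muMt-/- replicate 2. For GABA-pellet against muMt-/-, 0 of the 2 passed by edgeR beside 0% of all genes (0 at an unadjusted p beside 4.53% of all genes, and 0 by DESeq2), and *Msr1* had -0.56 (SE 0.53, adjusted p = 0.994), -1.27 without CD8 muMt-/- replicate 1 and -0.24 without CD8 GABA-pellet replicate 1. *Chil3* had 0.38 (SE 0.87), -1.54 without CD8 muMt-/- replicate 1 and -0.06 without TAM GABA-pellet replicate 2.

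Promoter sequences are shown for 3 members, picked after their matches to motifs were seen, to let a reader see letters of the kind bound by factors of this pathway. Promoters of 8 of the 10 genes were read (RefSeq, GRCm38.p6), in 9 entries because *Folr2* has 2, and those of *Msr1* and *Lyve1* were not analysed here. Each was searched on both strands for TTCNNNNGAA (the spacing typical of STAT6), TTCNNNGAA (other STAT factors), TTGCNNAA (C/EBP) and GAGGAA (PU.1), which 6.95%, 8.3%, 10.8% and 28.3% of 32851 promoters hold. The first matched only *Retnla*, 145 bases before the start, and the second only *Chil3*, 172 bases before. C/EBP letters matched only *Retnla*, 134 bases before the start and not overlapping the first match, and PU.1 letters matched *Mrc1* (3 times), *Marco*, *Stab1*, *Mgl2* and *Retnla*. They are printed 5′ to 3′ on the gene's strand, with the first motif in capitals for *Retnla* (chr16:48842359-48842658, plus strand), the second for *Chil3* (chr3:106167515-106167814, minus strand) and the last, read on the opposite strand, for *Mrc1* (chr2:14229164-14229463, plus strand). A match is a description of letters and not a site.
Retnla: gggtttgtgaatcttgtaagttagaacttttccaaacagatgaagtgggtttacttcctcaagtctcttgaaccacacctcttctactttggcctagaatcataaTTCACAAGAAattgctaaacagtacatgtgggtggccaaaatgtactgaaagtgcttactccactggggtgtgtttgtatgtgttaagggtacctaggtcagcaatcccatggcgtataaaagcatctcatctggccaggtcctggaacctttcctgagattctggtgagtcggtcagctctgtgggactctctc
Chil3: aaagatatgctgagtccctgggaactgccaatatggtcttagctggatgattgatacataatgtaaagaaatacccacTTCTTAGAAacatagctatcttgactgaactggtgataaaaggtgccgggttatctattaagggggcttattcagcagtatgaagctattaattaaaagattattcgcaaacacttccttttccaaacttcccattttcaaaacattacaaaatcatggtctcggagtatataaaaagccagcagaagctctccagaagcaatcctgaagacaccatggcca
Mrc1: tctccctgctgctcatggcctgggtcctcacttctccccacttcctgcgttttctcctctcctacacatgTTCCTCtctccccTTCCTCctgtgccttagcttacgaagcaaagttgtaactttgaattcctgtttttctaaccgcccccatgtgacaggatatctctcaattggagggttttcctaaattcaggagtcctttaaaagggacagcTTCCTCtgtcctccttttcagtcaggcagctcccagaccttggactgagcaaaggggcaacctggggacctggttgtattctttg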

How the data were processed

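The deposited count table gives, for 24781 genes in 36 libraries, the number of distinct barcoded molecules, which the authors counted after mapping reads to mm10 with STAR; no further normalization was found in the values. The 36 count columns were all matched to a sample. Coordinates and promoters came from RefSeq for the same build.

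Normalized numbers were counts divided by DESeq2 size factors over the 18 libraries of a cell type. edgeR 4.0.16 tested the genes whose mean normalized number exceeded 1 (quasi-likelihood F-test, TMM, 1 coefficient per group, 18 libraries per fit, 36 for comparisons between cell types), with Benjamini-Hochberg adjustment over all genes tested and a threshold of 0.05. P-values measure the spread between libraries, 1 per mouse. Counting intervals are exact binomial at the 95% level. The floor of 3 molecules replaced a group at 0, and no ratio was formed where both groups were at or under it. A group with 1 to 3 molecules otherwise entered its ratio as counted, with the interval. Depth was compared by exact permutation of 6 against 6 libraries, and correlations of log2(normalized number + 1), with group means removed, by 100000 permutations within groups. Code was tested on simulated data.

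Members and gene lists (interleukin 4 sensing, other alternative activation products, other scavenger receptors, resident macrophage and folate genes, and markers of TAMs, CD8 T cells, monocytes, neutrophils, eosinophils, dendritic cells, endothelium, fibroblasts, tumour epithelium and B cells) were chosen with earlier results of these data known. A gene of each of 2 lists is not reported here. All 10 members were described. Of each list, genes with an adjusted p under 0.05 were named, and otherwise the 3 with the highest mean in TAMs. For each member with a mean of at least 20, the 3 genes most like it were named.

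Alternatives were DESeq2 1.42.0 size factors and Wald tests, filterByExpr, no filter, a robust fit, only the groups compared, a replicate block, log2 depth as a covariate, and leaving out each library in turn. Levels were also taken as TMM-scaled numbers and molecules per 100000, and correlations with a pseudocount of 0.5 or uncentred. Leaving out GABA-pellet TAM replicates 2 and 6 was added after the data were seen. Fits ran in R 4.3.3, and the rest in Python 3.11.15, with scipy 1.17.1 for tests and intervals, matplotlib 3.10.9 for plots, and pandas 2.3.3 and numpy 2.4.6 for tables.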

Additional observations from a re-analysis of the deposited data

Results flagged for a closer look

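In 27 groups of 6 libraries, those with at least 5 molecules of a member in 1 library, the gap between the highest or lowest library and its nearest neighbour was divided by the group's whole range, and 7 groups gave a value above the 95% critical value of Dixon's test. Chance gives about 1 in 20 groups (5%) where groups are taken without regard to their values, but these were admitted by their highest library and some hold mostly 0, so that this share does not apply to the 7. In TAMs the value was 0.758 for *Mrc1* in muMt-/- mice, where replicate 4 held 137 molecules and stood at a normalized number of 191 with the next library at 54.6. It was 0.710 for *Mrc1* in GABA-pellet mice, where replicate 1 held 56 molecules (74.3, next 31.6), and 1 for *Retnla* in GABA-pellet mice, where replicate 6 held all 5 molecules.

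In CD8 libraries the value was 0.794 for *Mrc1* in GABA-pellet mice, where replicate 1 held 7 molecules. It was 0.655 for *Msr1* in muMt-/- mice (replicate 1, 15 molecules) and 0.892 for *Chil3* in the same library (15 molecules). For *Retnla* in muMt-/- mice it was 0.927, where replicate 5 held 17 molecules. The cause of these values was not tested.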

How the results depend on the processing

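Of 974 log2 fold changes of single members under an alternative, 911 kept their direction and side of the threshold, 33 changed sign with neither value past it, 18 were past it only under the alternative, 12 were past it only in the reported fit, and 0 reversed with a value past it. Where counts of genes or members past the threshold changed, the cause was not tested.

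For TAMs, muMt-/- against WT, 194 genes and 0 members became 295 genes with filterByExpr, 343 genes and 1 member without a filter, 323 genes and 1 member with only the groups compared, and 11 genes with depth as a covariate. DESeq2's unadjusted p gave 1042 genes and 1 member. Leaving out single libraries gave 67 to 231 genes and 0 to 1 member. The member was *Mrc1* each time.

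For TAMs, GABA-pellet against muMt-/-, 2 genes and 0 members became 65 genes and 1 member (*Msr1*) by DESeq2, 542 genes and 1 member with its unadjusted p, 51 genes and 2 members (*Lyve1* and *Mrc1*) without a filter, 4 genes with the robust fit, 5 with depth as a covariate, and 4 without GABA-pellet replicates 2 and 6, an alternative chosen after seeing the data. Leaving out single libraries gave 2 to 36 genes and 0 members.

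For TAMs, GABA-pellet against WT, 7 genes and 0 members became 15 genes by DESeq2, 407 genes and 3 members with its unadjusted p, 2 genes with filterByExpr, 63 genes and 2 members (*Cd163* and *Lyve1*) without a filter, 1 member (*Lyve1*, which passed the filter through this group) with depth as a covariate, and 4 genes with only the groups compared. Leaving out single libraries gave 2 to 9 genes and 0 members. The pooled *Chil3* ratio of GABA-pellet to WT TAMs was 1.87, and 1.23 without replicates 2 and 6, and that to muMt-/- TAMs was 1.27, and 0.835 without them.

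In CD8 libraries the 0 genes for muMt-/- against WT became 72 genes and 1 member (*Retnla*) without a filter, 226 genes and 1 member with DESeq2's unadjusted p, and 1 gene with only the groups compared, and leaving out single libraries gave 0 to 13. The 0 genes for GABA-pellet against muMt-/- became 133 with DESeq2's unadjusted p, 11 without a filter and 6 with depth as a covariate, and leaving out single libraries gave 0 to 1. The 0 genes for GABA-pellet against WT became 1 with DESeq2's size factors, 1 by DESeq2, 225 genes and 1 member with its unadjusted p, 64 genes and 1 member (*Msr1*) without a filter, and 1 with only the groups compared, and leaving out single libraries gave 0 to 1.

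For WT TAMs against WT CD8 T cells, 1928 genes became 1166 with filterByExpr and 412 with depth as a covariate. For the difference between cell types in the response to B cell loss, 1 gene became 0 with DESeq2's size factors, 38 by DESeq2, 637 genes and 1 member with its unadjusted p, 0 with filterByExpr, 79 without a filter, 0 with the robust fit and 13 with only the groups compared, and leaving out single libraries gave 0 to 9. For that in the response to GABA, 0 genes became 413 with DESeq2's unadjusted p, and 17 genes and 1 member (*Retnla*) without a filter, and leaving out single libraries gave 0 to 2.

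With the replicate number as a replicate block, the numbers of genes were 4 for GABA-pellet against muMt-/- in TAMs, 2 for that comparison in CD8 libraries, 1 for GABA-pellet against WT in CD8 libraries, and 2 for the difference between cell types in the response to B cell loss. The labels do not say that libraries of the same number belong together.

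For the gene lists, recomputed in TAMs under the same alternatives after seeing the data, the 7 other products higher in muMt-/- than in WT became 2 with depth as a covariate, 5 by DESeq2 and with filterByExpr (which tested 6), 6 with the robust fit, 7 with a replicate block, 8 with DESeq2's size factors and with only the groups compared, 9 without a filter and 3 to 7 without single libraries. *Tgm2* was gained in 6 of these settings (DESeq2, filterByExpr, the robust fit, DESeq2's size factors, only the groups compared and no filter) and *Mmp12* without a filter. The 2 genes that sense interleukin 4 became 0 with depth as a covariate and 1 to 2 without single libraries, and stayed 2 in the other settings. The 2 products for GABA-pellet against WT became 0 with filterByExpr, 3 without a filter, 1 with the robust fit, a replicate block, depth as a covariate or only the groups compared, 0 to 3 without single libraries, and 0 without GABA-pellet replicates 2 and 6.

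Of 24 alternatives for correlations between members, 0 passed the threshold, and 6 of 24 for the genes most like a member moved. Uncentred, r with *Msr1* was 0.60 for *Bcl2a1b*, 0.61 for *Bcl2a1d* and 0.58 for *Bcl2a1a*. Of 12 alternatives for CD8 percentages and 42 for ratios of levels, 0 moved.

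Depth limits *Lyve1*, *Cd163*, *Retnla* and *Marco*, with 32, 20, 5 and 1 molecules in TAMs, where a few molecules decide a ratio. Genes under the filter were tested without it, and in some alternatives with fewer libraries that they passed. *Lyve1* could not be fitted without GABA-pellet replicate 2 or 6, since it then fell under the filter. With 100 cells per library, a value can rest on a few cells. CD8 libraries are shallower than TAM libraries, and depth was uneven between the mouse groups in both, so that depth and group cannot be fully told apart. Promoters cover 300 bases only.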
